A study of Mus musculus with 6 samples.

Results

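Claudins are the membrane proteins from which the strands of tight junctions are built, and 10 of them that are known from epithelia of the airway and the alveolus were followed: Cldn1, Cldn2, Cldn3, Cldn4, Cldn7, Cldn8, Cldn10, Cldn12, Cldn18 and Cldn23. They were taken from the 22910 mouse genes that the array names through a RefSeq accession, as the genes to which 11 transcript probes map (2 probes for Cldn2 and 1 for each of the others). The rule lists them by name and uses no measured value, although the list was drawn up with earlier results of these data known. The cultures were 2D-MAOs, airway epithelial organoids from the lung of C57BL/6 mice that had been plated as a flat culture. The study asked what TGF-β1, a secreted growth factor, changes in these cultures. Treated cultures received TGF-β1 from day 3 and control cultures did not, both were kept in medium from which noggin and the TGF-β receptor inhibitor A83-01 had been left out, and all were collected on day 7. Each group held 3 biological replicates with 1 single-colour array each. The sources used here name neither the TGF-β1 concentration of this experiment nor how many animals the organoids came from, so the p-values measure the spread between these cultures.

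Tight junctions close the space between neighbouring epithelial cells near the apical surface. Each claudin crosses the membrane several times, and its extracellular loops meet those of claudins on the next cell. Some claudins seal the space, others line it with pores that let ions or water pass, and the mixture of claudins in a cell sets what its junctions let through. In the lung, airway cells and alveolar cells carry different mixtures, and the lung form of claudin-18 is characteristic of the alveolar epithelium. TGF-β is known as a signal under which epithelial cells can loosen their junctions during epithelial–mesenchymal transition, in which the repressors Snai1, Snai2, Zeb1 and Zeb2 bind E-box sequences in promoters of junction genes.

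Promoter sequences are shown for the 4 claudins whose signals moved most alike over the 6 arrays, Cldn1, Cldn3, Cldn4 and Cldn7. They are the 250 bases before an annotated start, from RefSeq's promoter windows of assembly GRCm38.p6, written 5′ to 3′ on the strand of the gene. Capitals mark CACCTG, an E-box, and TGANTCA, the motif of the AP-1 factors, each searched on both strands. The Cldn1 window is chr16:26371840-26372089 on the minus strand, the Cldn3 window chr5:134985964-134986213 on the plus strand, the Cldn4 window chr5:134946935-134947184 on the minus strand, and the Cldn7 window chr11:69965171-69965420 on the plus strand, which belongs to the second of the annotated starts of Cldn7.
Cldn1: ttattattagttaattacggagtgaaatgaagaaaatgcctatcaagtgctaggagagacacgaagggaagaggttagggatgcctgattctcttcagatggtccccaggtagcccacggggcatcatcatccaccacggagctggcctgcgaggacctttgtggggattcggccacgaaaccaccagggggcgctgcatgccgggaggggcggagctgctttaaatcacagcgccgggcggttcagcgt
Cldn3: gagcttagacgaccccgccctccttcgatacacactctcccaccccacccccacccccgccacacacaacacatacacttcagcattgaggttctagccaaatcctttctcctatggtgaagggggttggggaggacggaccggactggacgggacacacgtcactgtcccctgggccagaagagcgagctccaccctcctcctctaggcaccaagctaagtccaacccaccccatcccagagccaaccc
Cldn4: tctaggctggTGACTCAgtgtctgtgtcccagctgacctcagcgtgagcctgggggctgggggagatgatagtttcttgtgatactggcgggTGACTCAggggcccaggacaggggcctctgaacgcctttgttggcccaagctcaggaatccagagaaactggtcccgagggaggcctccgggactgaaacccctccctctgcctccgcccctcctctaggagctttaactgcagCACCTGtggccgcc
Cldn7: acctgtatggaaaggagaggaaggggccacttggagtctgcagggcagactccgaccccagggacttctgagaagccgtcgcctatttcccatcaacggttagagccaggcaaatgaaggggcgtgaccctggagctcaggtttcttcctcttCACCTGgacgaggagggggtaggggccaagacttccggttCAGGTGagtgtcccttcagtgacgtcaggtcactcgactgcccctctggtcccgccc

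In the Cldn4 window the AP-1 motif began 240 and 158 bases before the start, and CACCTG began 14 bases before it. In the Cldn7 window the E-box letters began 97 bases before the start and, on the other strand, 57 bases before it. The Cldn1 and Cldn3 windows held neither motif. RefSeq windows were given for 8 of the 10 members, with 13 windows in all, because Cldn7, Cldn10, Cldn12 and Cldn18 have several starts. No window for Cldn8 or Cldn23 was used here. CACCTG was present in 2 of the 13 windows, against 17.2% of the 32851 mouse windows of the same length, and TGANTCA in 1 of 13, against 6.75%. CAGAC, a motif of the SMAD proteins that carry the TGF-β signal, was present in 5 of 13 (42.2% of all windows), AACNNGTT, the motif of the Grainyhead-like factors, in 0 of 13 (3.64%), and TATAAA in 1 of 13 (12.4%), the Cldn2 window. These matches describe letters in the windows and not binding.

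The genes lie on several chromosomes, some of them shared, with a pair that is adjacent. Cldn3 and Cldn4 are neighbours on chromosome 5 with 0 coding genes between them in RefSeq's order for GRCm38.p6. Cldn8 neighbours Cldn17 on chromosome 16, and Cldn1 neighbours Cldn16 on the same chromosome. The other members are on chromosomes 5 (Cldn12), 8 (Cldn23), 9 (Cldn18), 11 (Cldn7), 14 (Cldn10) and X (Cldn2).

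All values below are log2 signals normalized by quantiles between arrays, and each fold change is TGF-β1 minus control. Between 55.0% and 59.0% of probes were well above background on an array, the mark that Feature Extraction gives to spots clearly brighter than their surroundings, and no spot was saturated. The 6 arrays lay on 1 slide with 1 scan time, and slide row 2 held both replicate 3 arrays while slide row 1 held the 4 others. TGF-β1 replicate 3 stood apart from the other treated arrays: its distance over all tested genes was 61.1 and 62.3 to them and 54.4 to 60.9 to the controls, while TGF-β1 replicates 1 and 2 were 32.3 apart. Values without it are therefore given for the claudins and for the lists of junction genes. Of the genes that TGF-β is known to induce, Pmepa1 rose by 1.31 on the log2 scale (limma adjusted p = 0.00616) and Tgfbi by 4.58 (limma adjusted p = 0.00247), while Smad7 had 0.82 (limma adjusted p = 0.0747). Of 12 markers of the labelled airway epithelium, 11 were well above background on all 6 arrays and Muc5b on 0 arrays. The 5 type 1 alveolar markers on the array (Hopx, Ager, Pdpn, Aqp5 and Cav1) were also well above background on all 6 arrays, as were Lamp3 and Abca3 of the type 2 alveolar list, whose surfactant genes Sftpc, Sftpb and Sftpa1 were so on 0.

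Of the 10 claudins, 8 were well above background on enough arrays to be tested, at least 3 of 6, and each of those 8 was so on all 6 arrays. None of the 8 passed the limma test over all 14345 genes at an adjusted p under 0.05, a threshold that 2.04% of all tested genes passed. At an unadjusted p under 0.05 from limma there were 3, Cldn1, Cldn4 and Cldn18, where 22.2% of all tested genes passed. By the methods' t-test 0 of 8 passed after Benjamini-Hochberg adjustment, against 9 of all 14345 tested genes. Without adjustment 1 of 8 passed, Cldn18, against 2452 of the 14345. The log2 fold change was above 0 for 6 of the 8, against 45.8% of all tested genes, and the median of the 8 was 0.26, against -0.03 over all tested genes. The size of the median depended on the scaling. With arrays scaled to their 75th percentile 5 of 8 were above 0, against 38.3% of all tested genes, and the median was 0.0034, against -0.094 over all tested genes. In these bulk cultures, fewer cells of a type and less RNA per cell cannot be told apart.

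Cldn1, a sealing claudin without which the epidermal barrier fails, had the largest fold change of the 8. Its log2 signal was 9.06, 9.70 and 9.33 in control replicates 1, 2 and 3 and 10.78, 10.90 and 9.69 in TGF-β1 replicates 1, 2 and 3. TGF-β1 replicates 1 and 2 were above every control, whereas TGF-β1 replicate 3 lay just below the highest control, so that the groups overlapped. The log2 fold change was 1.09 (SE 0.34, 95% CI 0.29 to 1.90), a 2.13-fold difference, with a limma adjusted p of 0.15 and an exact two-sided permutation p of 0.2, where 3 against 3 arrays allow no p below 0.1. Leaving out TGF-β1 replicate 3 gave 1.47, which passed the limma test (adjusted p = 0.0116). Within slide row 1, with 2 arrays a group, it was 1.46 (limma adjusted p = 0.0207), and the pair of arrays in slide row 2 differed by 0.36, with no test.

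Cldn4, a sealing claudin of many epithelia that restricts the passage of sodium, was higher on every treated array. Its log2 signal was 13.40, 13.06 and 13.18 in the controls and 14.22, 13.92 and 13.47 after TGF-β1. The lowest treated array was replicate 3, and the groups did not overlap. Cldn4 had a log2 fold change of 0.66 (SE 0.20, 95% CI 0.17 to 1.14, limma adjusted p = 0.151, exact two-sided permutation p = 0.1, the smallest possible). It passed the limma test without TGF-β1 replicate 3 (0.86, adjusted p = 0.0235) and within slide row 1 (0.84, adjusted p = 0.0331), while the arrays of slide row 2 differed by 0.29. Scaled to the 75th percentile of each array, it was 0.46 (limma adjusted p = 0.179).

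Cldn3, the chromosomal neighbour of Cldn4 and another sealing claudin, had log2 signals of 14.36, 14.50 and 14.46 in the controls and 14.75, 14.89 and 14.46 in the treated cultures. TGF-β1 replicates 1 and 2 were above every control and replicate 3 was in their range. Cldn3 differed by 0.26 on the log2 scale (SE 0.14, 95% CI -0.07 to 0.59, limma adjusted p = 0.308). Cldn7, a claudin that also lines the basolateral membrane of airway cells, showed the same pattern. Its log2 signals were 15.21, 15.32 and 15.44 in the controls and 15.74, 15.73 and 15.33 after TGF-β1, with replicates 1 and 2 again above every control and replicate 3 among them. Its log2 fold change was 0.27 (SE 0.15, 95% CI -0.08 to 0.62, limma adjusted p = 0.31). The values of both genes went to zero with the scaling, where Cldn3 had 0.0054 and Cldn7 0.0013 at the 75th percentile. Leaving out TGF-β1 replicate 3, Cldn3 had 0.38 (limma adjusted p = 0.0692) and Cldn7 0.41 (adjusted p = 0.0648), neither past the threshold. Within slide row 1, Cldn7 passed the limma test (0.46, adjusted p = 0.034) and Cldn3 did not (0.39, adjusted p = 0.0626).

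**Figure D1:**
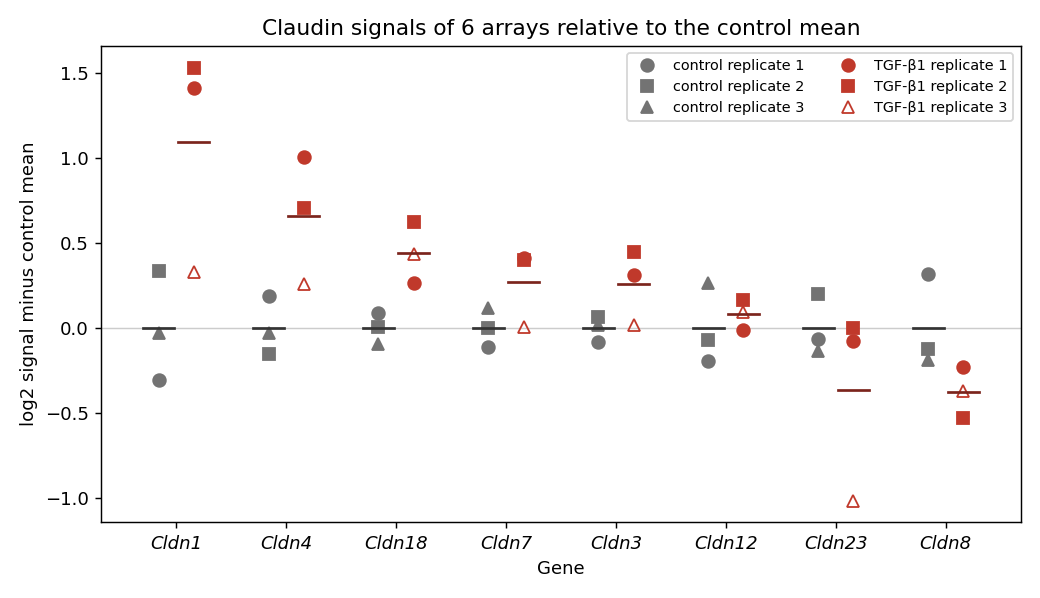
Normalized log2 signal of the 8 tested claudins on each array, shown as the difference from the mean of the 3 controls (vertical axis, log2 units; grey controls, red TGF-β1, shape marks the replicate, bars mark group means). For Cldn1, Cldn3, Cldn4 and Cldn7, TGF-β1 replicates 1 and 2 lie above every control and replicate 3 (open triangle) lies lower, 0.33 above the control mean for Cldn1 and 0.0041 above it for Cldn7.

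Cldn8, a sealing claudin that in the kidney works together with Cldn4, was lower on every treated array. Its log2 signal was 12.32, 11.87 and 11.81 in the controls and 11.77, 11.47 and 11.63 after TGF-β1. The highest treated array was below the lowest control, by a gap smaller than the range of either group. Cldn8 had a log2 fold change of -0.38 (SE 0.17, 95% CI -0.77 to 0.02, limma adjusted p = 0.243, exact two-sided permutation p = 0.1, the smallest possible). Unlike the claudins above, TGF-β1 replicate 3 sat with the other treated arrays, at -0.37 from the control mean where replicates 1 and 2 averaged -0.38. Against the controls of its own slide row, Cldn8 had -0.48 in row 1 (limma adjusted p = 0.136) and -0.18 between the arrays of row 2, and it had -0.22 without control replicate 1 (adjusted p = 0.541). Groups without overlap were found for 3 of the 8 claudins, Cldn4 and Cldn18 on the higher side and Cldn8 on the lower, against 26.4% of all tested genes (12.9% higher and 13.5% lower).

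Cldn18, whose lung form belongs to alveolar epithelial junctions, had a dim probe. The ratio of spot to local background was 2.66 to 3.34 in the controls and 3.65 to 4.37 after TGF-β1. Its log2 signal was 5.90, 5.82 and 5.72 in the controls and 6.07, 6.44 and 6.25 after TGF-β1. Every treated array was above every control, and replicate 3 was between the other treated arrays. Its log2 fold change was 0.44 (SE 0.13, 95% CI 0.13 to 0.75, limma adjusted p = 0.134, exact two-sided permutation p = 0.1, the smallest possible). It was 0.44 without TGF-β1 replicate 3 (limma adjusted p = 0.0881), 0.59 at the 75th percentile scaling (adjusted p = 0.0908) and 0.19 with normexp background correction (adjusted p = 0.266). The type 1 alveolar markers had a mean level between 13.68 and 14.34 in the controls and between 13.73 and 14.03 after TGF-β1, with 2 of 5 above 0 and 0 passing the test.

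Cldn12, a claudin of broad expression that lacks the usual binding end for scaffold proteins, had signals of 12.48, 12.60 and 12.94 in the controls and 12.66, 12.84 and 12.77 in the treated cultures. The treated arrays all lay within the range of the controls. Cldn12 differed by 0.08 on the log2 scale (SE 0.14, 95% CI -0.26 to 0.43, limma adjusted p = 0.749), and its sign turned under scaling to the 75th percentile (-0.075) and without control replicate 1 (-0.013). Cldn23, one of the less studied claudins, had 11.37, 11.64 and 11.30 in the controls and 11.36, 11.44 and 10.42 after TGF-β1. The log2 fold change of -0.37 (SE 0.28, 95% CI -1.03 to 0.30, limma adjusted p = 0.45) rested on TGF-β1 replicate 3, at -1.02 from the control mean, since without that array it was -0.04.

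The 2 pore-forming members were close to the limit of detection. Cldn2, which forms a channel for cations and water in leaky epithelia, was read by 2 probes. The probe that reached the mark at all was well above background on 1 array, control replicate 1, with signals of 5.75, 3.34 and 2.38 in the controls and 3.10, 1.86 and 3.91 after TGF-β1. Its other probe was well above background on 0 arrays. Cldn10, whose isoforms make channels for either cations or anions, was well above background on TGF-β1 replicates 1 and 2 and on no control array, with 2.80, 2.23 and 2.95 in the controls and 3.63, 3.55 and 1.66 after TGF-β1. The lowest signals well above background were between 3.47 and 4.19 over the arrays, so that no fold change is given for either gene, and neither was tested.

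**Figure D2:**
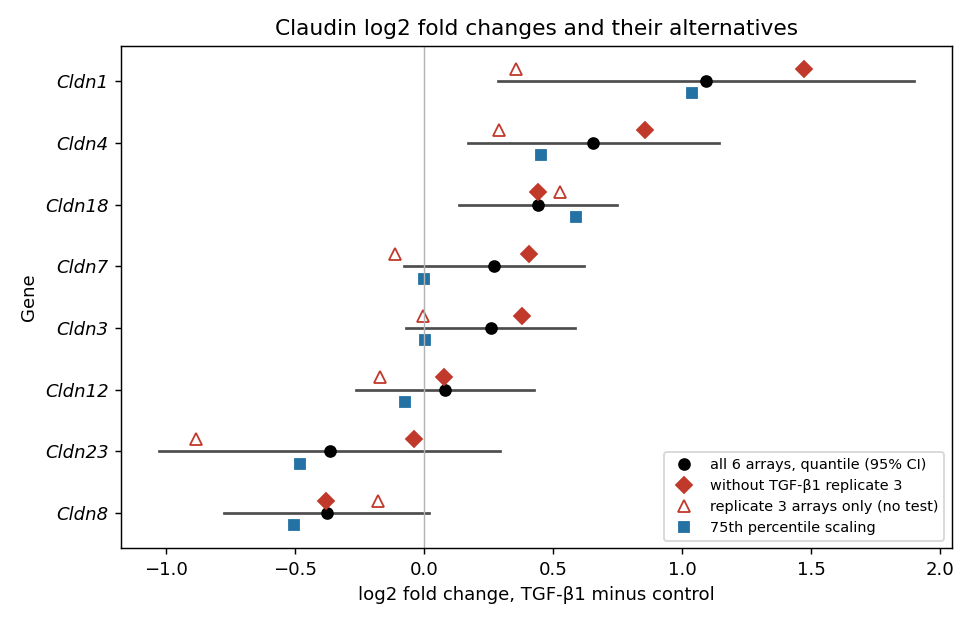
Log2 fold change, TGF-β1 minus control (horizontal axis, log2 units), of each tested claudin (vertical axis), with all 6 arrays and its 95% confidence interval (black), without TGF-β1 replicate 3 (red diamond), between the replicate 3 arrays alone (open triangle, no test) and with scaling to the 75th percentile (blue square). The intervals of Cldn1, Cldn4 and Cldn18 lie above 0, and the value of Cldn1 runs from 0.36 between the replicate 3 arrays to 1.47 without TGF-β1 replicate 3.

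Without TGF-β1 replicate 3, 2 of the 8 claudins passed the limma test, Cldn1 and Cldn4, both higher, against 15.4% of all tested genes in either direction and 9.08% higher. Cldn1 also met the 2-fold threshold, against 4.94% of all tested genes. Within slide row 1 there were 3, Cldn1, Cldn4 and Cldn7, all higher, against 26.8% in either direction and 13.8% higher. The median of the 8 was 0.39 without TGF-β1 replicate 3 and -0.06 between the arrays of slide row 2. Slide row 2 held both replicate 3 cultures, so that the slide row and the culture cannot be told apart.

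The claudins fell into groups by how they varied over the 6 arrays, given as Pearson's r over n = 6 arrays that share their treatment groups and array effects. Cldn1, Cldn3 and Cldn7 moved together, with r of 0.97 between Cldn1 and Cldn3, 0.95 between Cldn3 and Cldn7 and 0.93 between Cldn1 and Cldn7. Cldn4 was close to them, with r between 0.78 and 0.83. Cldn8 ran against them, with r of -0.71 to Cldn1, -0.70 to Cldn3 and -0.67 to Cldn7, and its strongest negative value was -0.74, to Cldn12. Cldn23 had r between -0.37 and 0.27 with the other claudins. The genes whose signals were most like those of Cldn1 over these 6 arrays, among all tested genes, were Cd164l2 (r = 0.9997), Rhbdd3 (r = 0.997), Gjb5, a gap junction connexin (r = 0.997), Traf3, an adaptor of TNF receptors (r = 0.995) and Adamts16, a secreted metalloproteinase (r = 0.995). They shared the low value of TGF-β1 replicate 3, and none of the 5 passed the limma test with all 6 arrays (log2 fold changes 0.96, 0.48, 1.49, 0.34 and 3.24, adjusted p between 0.144 and 0.231).

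**Figure D3:**
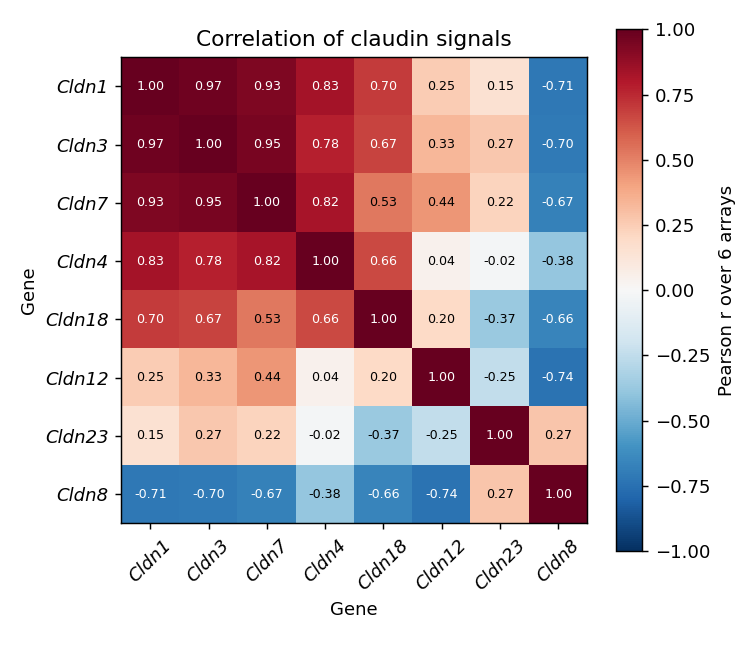
Pearson's r between the normalized log2 signals of each pair of tested claudins over 6 arrays (both axes list genes, colour runs from -1 in blue to 1 in red). Cldn1, Cldn3, Cldn7 and Cldn4 form a block with r of at least 0.78, and Cldn8 is negative against all claudins but Cldn23.

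Because the mixture of claudins matters to a junction, differences within an array were compared, which do not depend on scaling between arrays by a constant factor. The level of such a difference depends on the probes, and only its shift with treatment is read. The 5 pairs were chosen after the values were seen, so that the shifts are a description with no test. The log2 difference Cldn4 minus Cldn8 was 1.08, 1.18 and 1.37 in the controls and 2.45, 2.45 and 1.84 after TGF-β1. All treated arrays were above all controls, replicate 3 by the smallest margin, as the choice of a claudin higher and a claudin lower on every treated array fixes, and the shift was 1.03 (1.24 without TGF-β1 replicate 3). On the deposited signals without quantile normalization the shift was 0.96. Cldn1 shifted against Cldn8 by 1.47 and against Cldn3 by 0.83, and by 1.54 and 1.03 on the deposited signals. These shifts were 1.85 and 1.09 without TGF-β1 replicate 3 on the normalized signals. Cldn4 shifted against Cldn3, its neighbour, by 0.40 (0.48 without TGF-β1 replicate 3) and by 0.45 on the deposited signals. For this pair the groups overlapped, with -0.96, -1.45 and -1.28 in the controls and -0.53, -0.97 and -0.98 after TGF-β1. Cldn7 minus Cldn3 shifted by 0.01 and by -0.004 on the deposited signals, with values between 0.82 and 0.98 on all 6 arrays.

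The rest of the claudin family was mostly dim or not detected. Of a list of 14 other claudins, which did not hold the Cldn34 genes, 13 were on the array and 7 passed the filter on background. Of these 5 were above 0 and 2 below, with a median log2 fold change of 0.02 (0.18 under scaling to the 75th percentile). Without control replicate 3 there were 3 above 0 and 4 below, with a median of -0.047. With all arrays 0 passed the limma test, and 1, Cldn17, had an unadjusted p under 0.05, against 22.2% of all tested genes. Cldn17, the neighbour of Cldn8, had -0.50 (limma adjusted p = 0.225) and Cldn14, a sealing claudin of the inner ear, -0.39 (adjusted p = 0.253). Cldn6, a claudin of embryonic epithelia, had 1.05 (SE 0.71, limma adjusted p = 0.401) and was well above background on 3 of 6 arrays. Its signals were 4.41, 4.03 and 3.12 in the controls and 5.58, 5.90 and 3.23 after TGF-β1, with the treated replicate 3 within the controls. Without that array its log2 fold change was 1.89 (limma adjusted p = 0.0279). Cldn6 was the only 1 of the 7 to pass there, where 9.08% of all tested genes passed as higher. The others were Cldn20 with 0.33 (adjusted p = 0.381), the pore-forming Cldn15 with 0.06 (0.924), Cldn9, the neighbour of Cldn6, with 0.02 (0.905) and Cldn11 with 0.00 (0.998), all from limma. Of 9 genes named Cldn34 on the array, 1 passed the filter, Cldn34c1, with -0.18 (SE 0.19, limma adjusted p = 0.572). Cldn5, the claudin of endothelial junctions, was well above background on 0 arrays.

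Among the membrane proteins that share tight junctions with claudins, 9 of 12 were tested, and 8 had values above 0 and 1 below. The median log2 fold change was 0.32, and 0.42 without TGF-β1 replicate 3. Under scaling to the 75th percentile it was 0.11, with 7 above 0 and 2 below. With all arrays 0 passed the limma test, and 1 of the 9 had an unadjusted p under 0.05, against 22.2% of all tested genes. F11r, the junctional adhesion molecule JAM-A, had 0.51 (SE 0.13, limma adjusted p = 0.105), and Marveld2, the tricellulin of tricellular contacts, had 0.42 (SE 0.18, adjusted p = 0.229). Lsr, which brings tricellulin to those contacts, had 0.34 (adjusted p = 0.232). Jam2 had 1.30 (SE 0.60, adjusted p = 0.259) but was well above background on 3 of 6 arrays. Without TGF-β1 replicate 3, F11r (0.56, limma adjusted p = 0.0444) and Marveld2 (0.59, adjusted p = 0.0412) passed, 2 of 9, where 9.08% of all tested genes passed as higher.

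The 16 cytoplasmic plaque and polarity genes, some of which tie the strands to actin, were split. Of them 9 were above 0 and 7 below, with a median of 0.05. The limma test was passed by 0, and 3 had an unadjusted p under 0.05, against 22.2% of all tested genes. The sign of that median turned to -0.07 under scaling to the 75th percentile and to -0.0076 without TGF-β1 replicate 3. Prkci, the atypical protein kinase C of the apical polarity complex, had 0.46 (limma adjusted p = 0.151), Arhgef2, a signalling protein held at junctions, 0.36 (0.192), Tjp3, the scaffold ZO-3, -0.35 (0.186) and Ybx3, the ZO-1-bound factor ZONAB, -0.27 (0.287). Without TGF-β1 replicate 3, 1 of the 16 passed, Arhgef2 (limma adjusted p = 0.0292), where 9.08% of all tested genes passed as higher.

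Of 12 transcription factors that act on claudin genes, 9 were tested, 4 above 0 and 5 below, with a median of -0.01 (-0.20 under scaling to the 75th percentile). None passed the limma test with all arrays. At an unadjusted p under 0.05 from limma there were 5 of the 9, against 22.2% of all tested genes. Elf3, an epithelial activator, had -0.94 (SE 0.29, limma adjusted p = 0.152), Ovol1, a keeper of epithelial identity, -0.74 (SE 0.20, adjusted p = 0.115), Snai2, the E-box repressor Slug, 0.68 (SE 0.25, adjusted p = 0.185), and Grhl3, a Grainyhead-like activator, 0.49 (SE 0.17, adjusted p = 0.176). Without TGF-β1 replicate 3, Ovol1 (limma adjusted p = 0.0129) and Elf3 (0.04) passed as lower (6.27% of all tested genes) and Snai2 (0.034) as higher (9.08%).

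Of the 17 adherens junction and desmosome genes, 15 were above 0 and 2 below, with a median log2 fold change of 0.29, where 45.8% of all tested genes were above 0. Under scaling to the 75th percentile 11 were above 0 and 6 below, with a median of 0.16, and without TGF-β1 replicate 3 the median was 0.45. None passed the limma test, and 6 had an unadjusted p under 0.05, against 22.2% of all tested genes. Nectin1 had 0.81 (SE 0.21, limma adjusted p = 0.106), Pkp1, a desmosomal plakophilin, 0.81 (SE 0.24, adjusted p = 0.134), Nectin4 0.73 (SE 0.25, adjusted p = 0.167) and Cdh1, E-cadherin, 0.49 (SE 0.21, adjusted p = 0.23). Without TGF-β1 replicate 3, 4 of the 17 passed the limma test, all higher, against 9.08% of all tested genes. These were Nectin1, Pkp1, Nectin4 and Ctnnd1 (limma adjusted p = 0.0258), whereas Cdh1 did not pass (adjusted p = 0.0706).

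**Figure D4:**
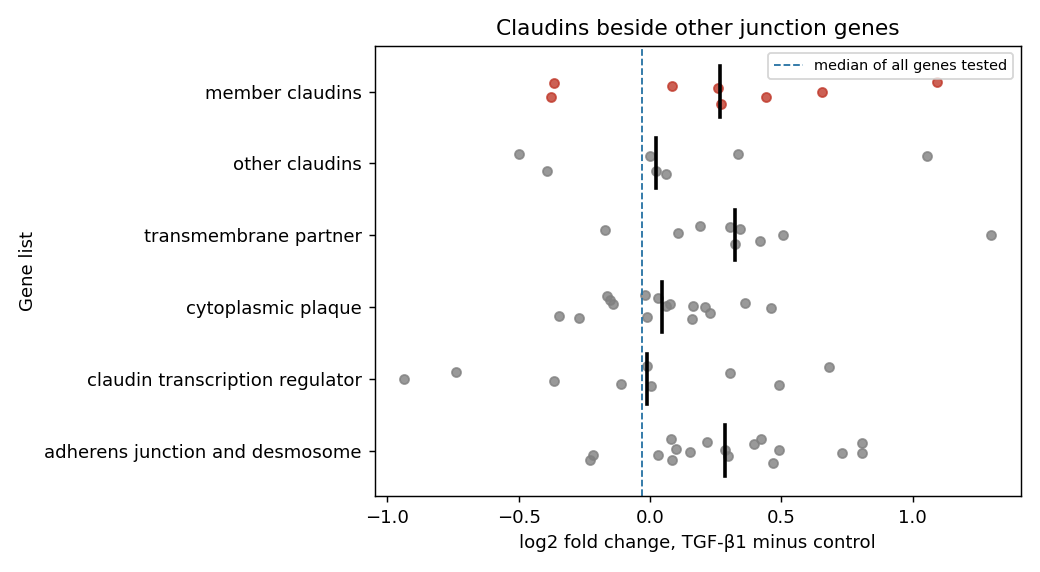
Log2 fold change, TGF-β1 minus control (horizontal axis, log2 units), of each tested gene in the claudin list and in 5 lists of other junction genes (vertical axis); points are genes, black bars list medians and the dashed line the median of all tested genes, -0.03. The medians run from -0.01 for the transcription regulators to 0.32 for the transmembrane partners, with the 8 claudins at 0.26.

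Other values moved with the same arrays. The basal cell keratin Krt5 had log2 signals of 12.68, 12.64 and 13.43 in the controls and 15.17, 14.45 and 13.23 after TGF-β1, with replicate 3 among the controls. The pan-epithelial Epcam had 13.33, 13.09 and 13.50 against 14.49, 14.19 and 13.71, and neither gene passed the limma test (adjusted p = 0.179 and 0.115). Both passed without TGF-β1 replicate 3, with 1.90 for Krt5 (limma adjusted p = 0.0194) and 1.03 for Epcam (adjusted p = 0.0179). Scgb1a1 of club cells, the largest difference in the list, had 10.83, 10.18 and 7.77 in the controls and 7.00, 7.57 and 7.42 after TGF-β1. It differed by -2.27 on the log2 scale (adjusted p = 0.158 from limma), and Krt19 by -0.31 (adjusted p = 0.41). Of the 11 airway epithelial markers tested, 8 were above 0 and 1 passed, Foxj1 of ciliated cells, which rose by 1.47 (limma adjusted p = 0.00238). The mean level of those 11 was between 13.08 and 13.25 in the controls and between 13.11 and 13.52 after TGF-β1. The part of these markers in the claudin values was not tested. Of the 7 fibroblast markers, 4 were tested and all had values above 0. The mean level of those 4 was between 5.14 and 5.46 in the controls and between 6.43 and 7.22 after TGF-β1. Col1a1 (limma adjusted p = 0.0091) and Col1a2 (adjusted p = 0.0162) passed as higher but were well above background on only 3 arrays each. Their control signals, 2.42 to 2.74 for Col1a1 and 2.84 to 3.70 for Col1a2, were below or close to the lowest signals well above background. After TGF-β1 they were 4.74 to 5.89 and 4.89 to 5.48. Both genes thus met the filter mainly through the treated arrays, and their calls and the list mean are a description only. Col3a1, Lum and Pdgfrb were well above background on 0 arrays. Dcn, with 1.00 (limma adjusted p = 0.273), and Pdgfra, with 0.21 (adjusted p = 0.484), were well above background on all 6. The endothelial Cdh5, Kdr, Tek, Tie1 and Emcn and the leukocyte genes Ptprc, Adgre1 and Lyz2 were well above background on 0 arrays, whereas Pecam1 and Esam of the endothelial list and Cd68, Cd3e, Itgam and Csf1r of the leukocyte list were so on all 6. Of these Cd68 had the largest difference, 0.90 (limma adjusted p = 0.147). These mean levels leave out the genes that did not pass the background filter. The mean of the 3 of 8 endothelial genes tested was between 4.51 and 4.96 in the controls and between 4.26 and 5.12 after TGF-β1. That of the 4 of 8 leukocyte genes tested reached 10.92 in the controls and 11.20 after TGF-β1.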

How the data were processed

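RNA of 3 control and 3 TGF-β1-treated 2D-MAO cultures had been hybridised to Agilent mouse arrays with a single dye. Per the submitters' processing notes the arrays were read with Agilent Feature Extraction 11.0.1.1. The files deposited by the authors hold the intensity of each spot on a linear scale, after background subtraction and without normalization between arrays, with marks for spots well above background and for outliers. The number of arrays limited the precision. The study normalized log2 signals by quantiles, and this was repeated here.

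Control spots and spots marked as outliers were removed and spots of a probe averaged, which left 56599 of 56605 probes. Gene symbols came from a RefSeq table of GRCm38.p6 (32991 of 35883 RefSeq probes matched). The array was annotated on an older build, so that no probe positions are given. A probe entered the test when 3 or more of the 6 arrays showed it well above background (32460 probes), and a gene was represented by its brightest probe (14345 genes). Groups were compared with limma 3.58.1 in R 4.3.3, with Benjamini-Hochberg adjustment over all genes. A 2-fold threshold is a log2 fold change of 1. Tables and plots used pandas 2.3.3, numpy 2.4.6 and matplotlib 3.10.9. The analysis was tested on simulated data.

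The members, gene lists and tests were chosen with earlier results of these data known. The text names all members, every other claudin past the filter, the members of each other list that passed or else the 4 with the largest change, the 5 genes most like Cldn1, and the treatment genes Smad7, Pmepa1 and Tgfbi. A gene that the rule also selects is not reported here. Cldn5 is named outside that rule, as are the cell type markers and the 5 pairs of claudins, which were picked after their values were seen. The alternatives tried were a 75th percentile scaling, background correction by normexp (offset 50), detection required on all 6 arrays or on none, averaging the probes of a gene, a trended robust prior, array weights, the methods' t-test, a block for replicate or slide row, the values within each slide row, and leaving out each array. The normexp alternative used median spot brightness.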

Additional observations from a re-analysis of the deposited data

How the results depend on the processing

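Of 128 values of the 8 claudins under alternatives tested with limma, 117 kept their direction and their side of the threshold, 9 passed it and 2 turned. These and the methods' t-test gave as values past the threshold Cldn1 1.46, Cldn3 0.37, Cldn4 0.78 and Cldn7 0.43 with array weights (TGF-β1 replicate 3 weighted 0.297), Cldn1 1.46, Cldn4 0.84 and Cldn7 0.46 within slide row 1, Cldn1 1.47 and Cldn4 0.86 without TGF-β1 replicate 3, and Cldn18 0.44 by the methods' unadjusted t-test. The number of claudins past the threshold was thus 4, 3, 2 and 1 in these settings and 0 in the others. Of all 14345 tested genes, 4983, 3847, 2202 and 2452 passed in these settings, in the same order. Between the single arrays of slide row 2, with no test, Cldn1 had 0.36, Cldn3 -0.0041, Cldn4 0.29, Cldn7 -0.11, Cldn12 -0.17 and Cldn23 -0.88. Cldn12 turned to -0.075 under scaling to the 75th percentile and to -0.013 without control replicate 1. The median of the 8 claudins was 0.0034 under scaling to the 75th percentile, 0.37 with array weights, 0.39 within slide row 1 and -0.058 in slide row 2. The medians of other lists moved under scaling to the 75th percentile, to 0.18 for other claudins, 0.11 for transmembrane partners, -0.073 for plaque genes, -0.20 for transcription regulators and 0.16 for adherens junction and desmosome genes, and without TGF-β1 replicate 3 to 0.098, 0.42, -0.0076, -0.01 and 0.45. The cause was not tested.

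Leaving out each array in turn gave 0.87 to 1.47 for Cldn1, 0.16 to 0.38 for Cldn3, 0.48 to 0.86 for Cldn4, 0.20 to 0.41 for Cldn7, -0.47 to -0.22 for Cldn8, -0.01 to 0.21 for Cldn12, 0.35 to 0.53 for Cldn18 and -0.55 to -0.04 for Cldn23, with 0 to 2 claudins past the threshold and a median of 0.19 (TGF-β1 replicate 2 left out) to 0.39 (TGF-β1 replicate 3 left out). Over all genes, calls went from 292 to 56 when TGF-β1 replicate 2 was left out, 2202 when TGF-β1 replicate 3 was, 4983 with array weights and 74 with no filter, all from limma, and were 9 by the methods' t-test after adjustment.

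Samples of the same number did not deviate together (r = -0.0077, 0.333 and -0.047), so the numbers were not taken as a pairing. With the replicate block, Cldn1 had 1.09 (limma adjusted p = 0.166), 0 claudins passed the threshold and all-gene calls fell to 104; not every sample correlated best with its own number. Cldn2 and Cldn10 did not pass the background filter and have no values here. Signal over background limits Cldn2, Cldn10 and Cldn18.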
